A study of Strongylocentrotus purpuratus with 9 samples.

Results

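The regions described here are dense runs of enhancer RNA (eRNA) peaks in the genome of the purple sea urchin, *Strongylocentrotus purpuratus*. They are 3322 of the 18076 eRNA peaks (18.4%) that the study called in whole embryos, and they form 855 runs. The members were chosen by position and score. Peaks were sorted along each scaffold of the v3.1 assembly, and neighbours were joined while their starts were no more than 5000 bp apart. A run was kept when it held 3 or more peaks and when each of them scored below 44, the 95th percentile of the list. Both the closeness of the peaks and the upper bound of their scores are therefore set by the choice, and are given below as a description with no test.

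The peaks come from CAGE-seq (cap analysis of gene expression), which reads the capped 5′ ends of RNAs. Libraries were prepared from total RNA of whole embryos at 9 stages, from 0 to 48 hr postfertilization (hpf) in steps of 6 h, with 1 library per stage and no treatment or genetic change named in the labels. The labels speak of more than 1 embryo culture but do not say which sample came from which. The deposited list is the union over the stages, and it carries for each peak a position and a whole-number score that the sources used here do not define. It has no value for a single library, so that stages cannot be compared, no spread between samples can be given, and the number of reads behind a peak is unknown.

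Enhancers are *cis*-regulatory elements that raise transcription of a gene from a distance, and in many animals active enhancers are themselves transcribed, usually in both directions from a central nucleosome-depleted region. The short, unstable products are the eRNAs, and a pair of divergent CAGE signals is used to locate them. Regulatory regions of sea urchin developmental genes are known to be built from several separate modules, each of which may respond to its own set of transcription factors. A run of peaks is a measurement of position only, and the data do not show whether its peaks belong to 1 gene or act together.

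Most dense runs were small. Of the 855 runs, 490 (57.3%) held 3 peaks, 173 held 4 and 102 held 5. A further 84 runs held 6 to 9 peaks, and 6 runs held 10 or more, up to 13. The small runs of 3 thus supplied 1470 of the 3322 members, and the runs of 10 or more supplied 65.

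**Figure D1:**
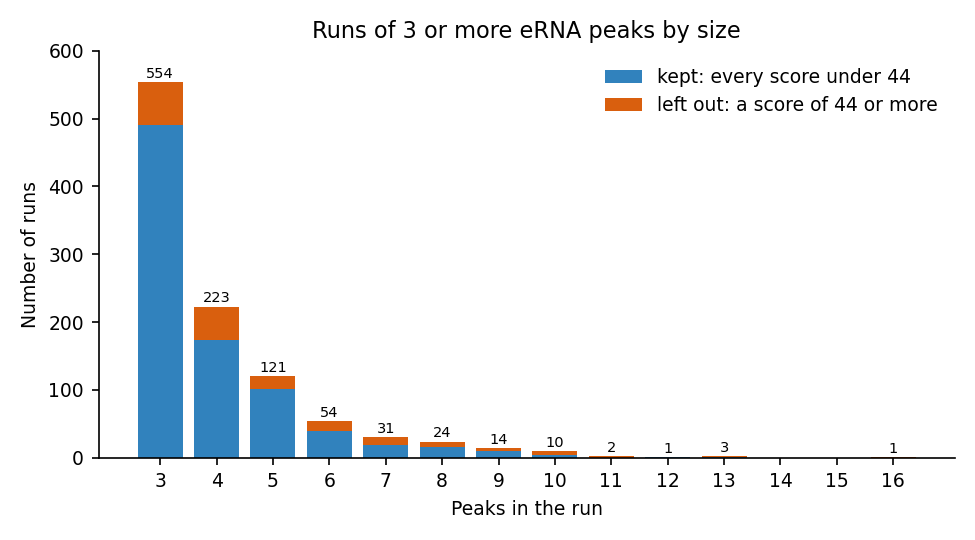
Number of runs (vertical axis) by the number of eRNA peaks in the run (horizontal axis); blue bars are the 855 runs kept, orange bars are the 183 runs left out because a peak scored 44 or more, and the number printed on top of each bar is their sum. Left-out runs make up 64 of the 554 runs with 3 peaks and 11 of the 17 with 10 or more.

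The limit on the score removed a larger share of the large runs than of the small ones. Without it, 1038 runs with 4207 peaks (23.3% of the list) would have been formed, and 183 of these runs (885 peaks) were left out. In 153 of the 183, a lone peak stood at or over the limit, and its neighbours were left out with it. The share left out was 11.6% for runs of 3 peaks, 20.1% for runs of 4 or 5, 31.7% for runs of 6 to 9 and 64.7% for runs of 10 or more. A larger run has more peaks that can reach the limit, so that this order is in part a property of the rule. The largest run of the list, with 16 peaks, was among those left out.

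The run with the most peaks lay on Scaffold3107 (v3.1), from 44016 to 60192, and held 13 peaks over 16177 bp. Its scores, from the first peak to the last, were 2, 2, 5, 22, 7, 2, 2, 3, 3, 4, 11, 2 and 15. The peaks with the highest scores, 22 and 15, were of opposite shape, since the former was 871 bp wide and the latter 58 bp. Peaks of this run were between 12 and 995 bp wide and covered 31.0% of its length. A second run on the same scaffold, with 8 peaks from 85188 to 101448, was left out because its top peak scored 44.

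The run on Scaffold166, from 720081 to 736545, held 12 peaks. Its scores read 3, 5, 14, 2, 5, 5, 2, 2, 14, 2, 14 and 2, so that a score of 14 came up at 3 separate peaks, which were 210, 206 and 286 bp wide. The median width of its peaks, 186.5 bp, was the lowest among the 10 runs drawn in the map of large runs. A stretch of 4847 bp from start to start separated its first 4 peaks from the other 8, and a join distance below that would have split it.

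Another 4 runs held 10 peaks each. On Scaffold326, from 5183 to 18148, the scores were 20, 2, 8, 32, 2, 12, 5, 11, 3 and 2, with 4 peaks at 11 or more. This run was the most compact of the 4, with a span of 12966 bp, of which peaks covered 33.9%. Scaffold213 carried a pair of such runs. In the first, from 206196 to 223862, the scores were 2, 2, 30, 6, 3, 3, 6, 2, 2 and 6, and the peak of 30 held 48.4% of the summed score. In the second, from 260028 to 285014, they were 15, 10, 4, 11, 13, 8, 2, 4, 2 and 2, so that the scores of 8 or more all lay in its first 6 peaks. With 24987 bp the second was the longest of all 855 runs. On Scaffold759, from 148693 to 167264, the scores were 2, 6, 2, 2, 2, 2, 8, 4, 9 and 16, with the highest in the last peak.

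A further 10 runs held 9 peaks each, with spans up to 24291 bp and top scores from 3 to 36. The 4 with the shortest span are described here. The run on Scaffold946, from 500677 to 509028, was packed into 8352 bp and had scores of 7, 20, 2, 2, 27, 5, 20, 2 and 3. The run on Scaffold128, from 836157 to 848557, had 2, 3, 11, 18, 3, 7, 15, 4 and 2, with its highest scores inside the run. On Scaffold355, from 128905 to 143272, scores of 2, 7, 15, 3, 12, 18, 2, 7 and 7 went with peaks up to 702 bp wide. The run on Scaffold1805, from 100218 to 113680, had no score above 8, with 4, 5, 8, 5, 2, 2, 2, 2 and 4. Among the 6 longer runs with 9 peaks, that of Scaffold376 is described below with the summed scores, and those of Scaffold2765, Scaffold127 and Scaffold2637 had top scores of only 3, 6 and 6. The remaining runs, on Scaffold1985 and Scaffold1358, had top scores of 13 and 17.

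**Figure D2:**
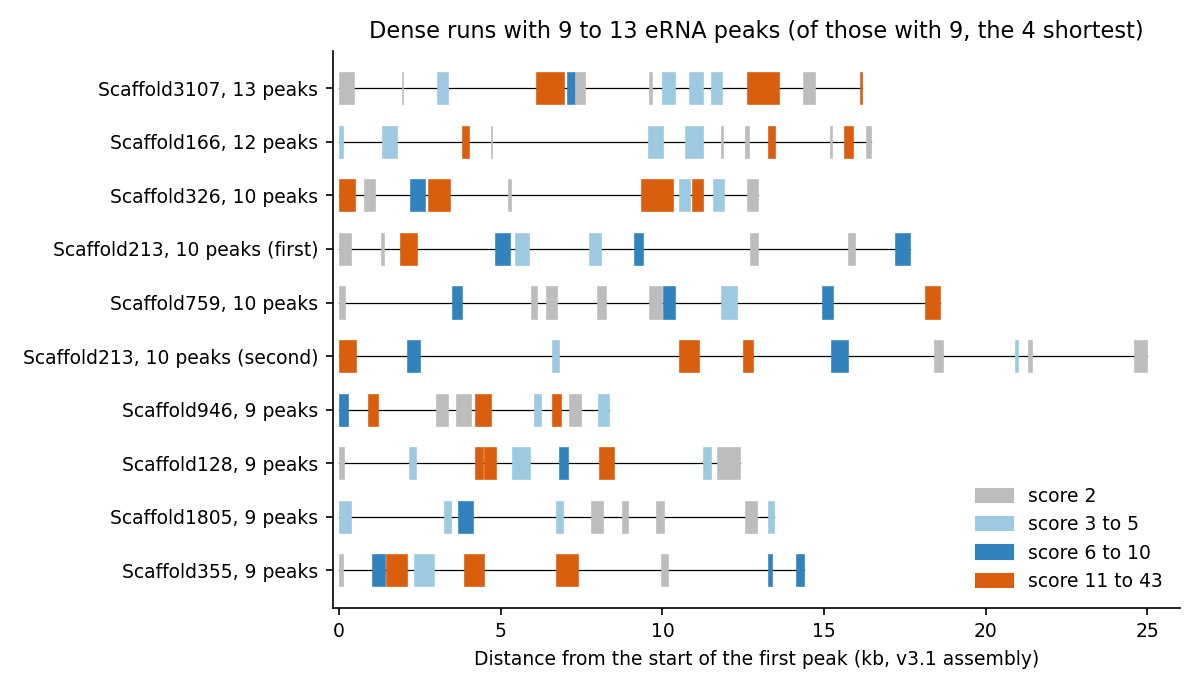
Map of the 6 dense runs with 10 or more peaks and of the 4 shortest of the 10 runs tied at 9 peaks, each drawn to scale from the start of its first peak (horizontal axis, kb in v3.1); blocks are eRNA peaks, coloured by score, and the line joins the first peak to the last. Most of these runs hold peaks of score 2 and peaks above 10, spans range from 8352 bp (Scaffold946) to 24987 bp (the second run of Scaffold213), and Scaffold1805 has no peak above a score of 8, as have 3 of the tied runs that are not drawn.

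Over all 855 runs, the span from the start of the first peak to the end of the last had a median of 5772 bp (quartiles 3823 and 7716 bp) and ranged from 771 to 24987 bp. The median follows the rule, and was 3257.5 bp with a join distance of 2500 bp and 9791 bp with 10000 bp. Peaks covered a median of 20.9% of that length, with quartiles of 15.1% and 30.1%. Among runs with at least 4 peaks, the shortest lay on Scaffold1148, from 204738 to 206295, where 4 peaks with scores of 2, 2, 4 and 16 filled 55.8% of 1558 bp. The next was on Scaffold1379, from 256201 to 258724, with scores of 8, 2, 14 and 2 in 2524 bp. The one after it, on Scaffold1396 from 425819 to 428421, had scores of 9, 8, 9 and 2 in 2603 bp, and so lacked a leading peak.

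Inside the dense runs, neighbouring peaks started a median of 1780 bp apart (quartiles 986.5 and 2997 bp, n = 2467 distances). The commonest class was over 500 and up to 1000 bp, with 468 distances (19.0%), and the number fell steadily from there to 122 distances (4.95%) in the last 500 bp below the join distance. The stretch left between neighbouring peaks had a median of 1424 bp. Gaps of 100 bp or less were found at 82 places, and the smallest was 2 bp. Since the list over all neighbours also held 224 distances of over 5000 and up to 5500 bp, close to the 273 just below, the join distance does not fall at a break in the spacing. The neighbours closest to it were 4999 bp apart, inside a run on Scaffold607 (361013 to 361366 and 366012 to 366377, scores 3 and 15), and 5003 bp apart, outside any run, on Scaffold12 (694127 to 694606 and 699130 to 699300, scores 17 and 2).

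**Figure D3:**
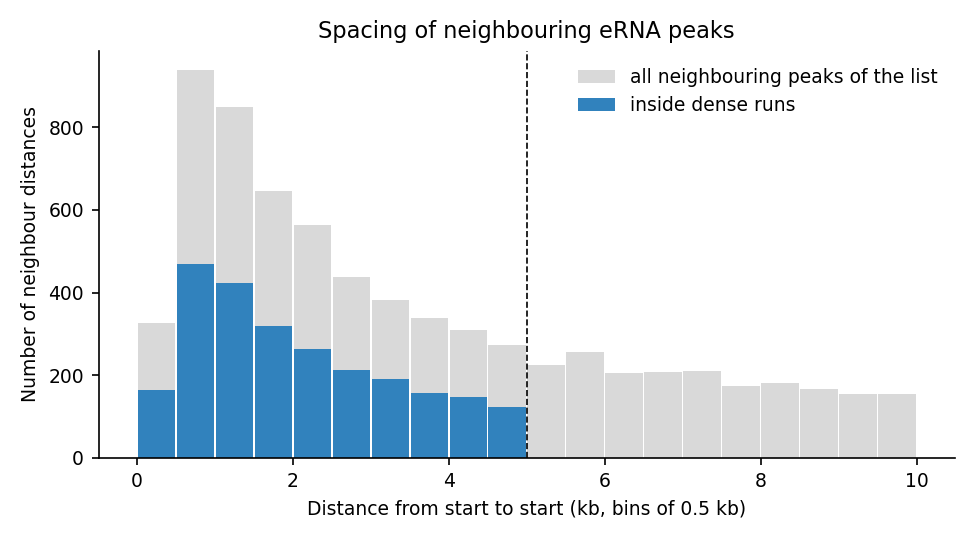
Number of neighbour distances (vertical axis) in bins of 0.5 kb of start-to-start distance (horizontal axis); grey bars are all neighbours of the list up to 10 kb, blue bars in front of them are those inside dense runs, and the dashed line is the join distance of 5 kb. Both peak at 0.5 to 1 kb, with 938 and 468 distances, and the grey bars pass the dashed line without a step.

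Larger runs were longer more than they were denser. The median span was 4516 bp for runs of 3 peaks, 7038 bp for 4 or 5, 11043.5 bp for 6 to 9 and 17066 bp for 10 to 13. Each further peak adds a step of up to 5000 bp, so that this rise follows in part from classing runs by their peaks. The median distance between neighbours changed less, with 1919, 1678, 1705 and 1473 bp in the same order. The share of the span covered by peaks was also alike, at 21.8%, 20.5%, 20.4% and 18.8%.

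The scores of the members were low, as were those of the whole list, and spread over the whole range below the limit set by the rule. Their median was 3 (quartiles 2 and 7), and all peaks of the list had the same median and quartiles. The lowest score of 2 was held by 1362 of the 3322 members (41.0%), against 44.4% of all peaks in the list. A score of 10 or more was found at 619 members (18.6%), against 19.1% of all peaks, a share that includes the peaks the rule removes. Single peaks with no neighbour within 5000 bp that were under the same limit stood lower, with a median score of 2 (quartiles 2 and 5), 50.3% at the lowest score and 11.7% at 10 or more (n = 9583). Pairs with both peaks under the limit lay between them, with 46.5% at the lowest score and 15.3% at 10 or more (n = 3420). Peaks under the limit in the runs left out stood higher than the members, with a median score of 5 (quartiles 2 and 12). Of these, 30% were at the lowest score and 32.5% at 10 or more (n = 664). The order from single peaks over pairs to dense runs is a description, because the runs were formed from the list that is compared and its peaks share libraries.

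Within a run, the top peak held a large but varying part of the summed score. The top score had a median of 9 over the runs (quartiles 5 and 20), and its peak held a median of 50% of the summed score (quartiles 40% and 62.3%). The fewer the peaks in a run, the higher this share must at least be, and 57.3% of the runs held 3 peaks. In 99 runs (11.6%) that score was shared by 2 or more peaks. The other 2467 peaks had a median score of 2. The top peak of a run, the first of them where tied, had a median width of 379 bp, against 303 bp for the others. Top peaks were picked by their score, and members with a higher score were wider. Both the low score of the other peaks and this difference in width are therefore in part set by that choice. Runs in which each peak had the lowest score numbered 39 (4.56%), 36 of them with 3 peaks and none with more than 4. In 131 runs no peak had the lowest score, and in 143 runs at least 2 peaks scored 10 or more.

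The highest summed score, 145, belonged to a run on Scaffold376, from 117532 to 137043, whose 9 peaks scored 25, 3, 23, 3, 24, 12, 4, 36 and 15. It was followed by a run on Scaffold468, from 461763 to 474418, with 35, 17, 21, 12, 34, 2 and 2, which add up to 123. The run on Scaffold87, from 276093 to 292732, came next at 105, with 2, 16, 10, 24, 2, 20, 8 and 23. In all 3 runs the top peak held 22.9% to 28.5% of the sum. With each score below 44, a sum this high needs several scoring peaks, so that the low share is in part set by the choice. A run on Scaffold514, from 216413 to 226647, was named for its top score just under the limit. In it a peak of 43, 872 bp wide, stood among 3 peaks of 2 and held 87.8% of the sum.

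Of the runs just inside the score limit, 3 had a top score of 43, and just outside it 9 runs were left out with a top score of 44. The former were that of Scaffold514 and those on Scaffold622 (177855 to 188655), with scores of 2, 11, 3, 43, 2, 2, 9 and 2, and on Scaffold78 (68735 to 73751), with 3, 23, 43, 16 and 12. Those left out held 3 to 8 peaks and summed scores of 48 to 138. Among them, a run of 6 peaks on Scaffold1436, from 111778 to 121769, summed to 138 with a median score of 21, and a run of 3 on Scaffold564, from 185361 to 190036, to 48 with a median score of 2. Runs on both sides of the limit thus included some with a lone high peak and some with several.

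Peak width was not used in the choice. Over the members the median was 324 bp, with quartiles of 216 and 400 bp, against 292 bp (189 and 373 bp) for single peaks under the same score limit, and 309 bp (205 and 385 bp) for pairs under it. Widths of 500 bp or more were found at 384 members (11.6%), against 9.13% of all peaks and 4.50% of the single peaks under the limit. Widths of 150 bp or less were found at 436 members (13.1%), against 14.9% of all peaks and 17.3% of the single peaks under the limit. Peaks under the limit in the runs left out were wider than the members, with a median of 356 bp (248 and 459 bp) and 20.3% at 500 bp or more. The quartiles of the classes overlap widely, and no test over peaks was made.

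Members with a higher score were wider, and the difference in width from single peaks was not the same at each score. At the lowest score, members and single peaks had nearly the same median width, 264.5 and 262 bp. The medians were 319 against 290 bp at a score of 3, 330 against 304 bp at 4 or 5, and 354 against 330.5 bp at 6 to 10. At 11 to 43 they were 447 bp for 571 members and 386 bp for 1001 single peaks, with 394 bp for 440 peaks in pairs. The gap between members and single peaks was thus smallest at the lowest score and largest in the class of 11 to 43. In the lower classes, peaks in pairs had medians of 270.5 bp at 2, 298 bp at 3, 327 bp at 4 or 5 and 359 bp at 6 to 10. Members were thus wider than pairs at 3, at 4 or 5 and at 11 to 43, and narrower at 2 and at 6 to 10. Spearman's rho between score and width was 0.42 over the 3322 members and 0.28 over the 9583 single peaks under the same limit, both across peaks of the same pooled libraries.

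**Figure D4:**
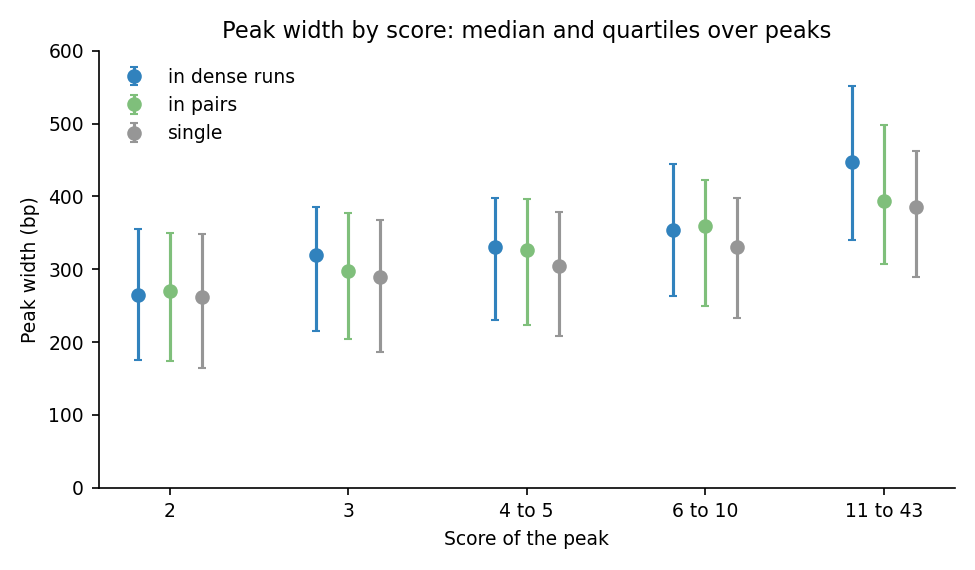
Width of eRNA peaks in bp (vertical axis) in 5 classes of score (horizontal axis) for dense runs (blue), pairs with both peaks under the limit (green) and single peaks (grey); points are medians over peaks and bars run from the lower to the upper quartile. At a score of 2 the medians lie within 262 to 270.5 bp, and at 11 to 43 dense runs stand at 447 bp against 394 and 386 bp.

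First, inner and last peaks of a run had much the same values. Each of these places had a median score of 3, with 40.5%, 39.9% and 43.6% at the lowest score (n = 855, 1612 and 855). Their median widths were 316, 327.5 and 326 bp. Between neighbours in a run, rho was 0.05 for their scores and 0.08 for their widths (n = 2467 neighbours, which share peaks and libraries). Both values are close to 0. The rule left out runs with a score of 44 or more, which limits the range of scores behind the first value. In 17.4% of neighbours both peaks had the lowest score, a share to be read beside the 41.0% of all members at that score. The runs of Scaffold3107 and Scaffold166 are examples in which peaks of 11 or more stand beside peaks of 2.

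The dense runs were spread over 584 of the 2922 scaffolds with a peak (20.0%), and 173 scaffolds carried more than 1 run. Scaffolds with a run had a median of 14 peaks, against 3 in the list. A scaffold needs at least 3 peaks to carry a run, so that this contrast is in part set by the rule. Scaffold3 carried the most members, 43 of its 97 peaks in 12 runs, followed by Scaffold34 with 32 of 68 peaks in 6 runs and Scaffold213 with 31 of 70 in 5 runs. Another 4 scaffolds also carried 5 runs. On 35 scaffolds each peak was a member. Beyond the ends of a run, the next peak started a median of 17579.5 bp upstream and 17454 bp downstream, although 123 and 120 runs had no further peak on that side of their scaffold. By the rule each of these distances is over 5000 bp, and they were not set against other distances over that length.

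The *Sp-kirrelL* locus on Scaffold8, whose product is needed for the fusion of skeletogenic cells, held no dense run. The peaks of elements C and E, which a later study of the gene tested as putative *cis*-regulatory elements, were 2503 bp apart and formed a pair. That of element I began a further 8098 bp on. Each of the peaks of C, E and I had the lowest score of 2. Scaffold8 had a lone dense run elsewhere, from 48353 to 64182, in which 7 peaks scored 31, 21, 4, 8, 14, 2 and 3. On the v5.0 scaffold that carries *Sp-kirrelL*, 179 of 874 placed peaks (20.5%) were members, against 18.4% in the list.

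The list was also lifted by the authors to the newer v5.0 assembly, which places the same peaks on longer scaffolds and is not a separate measurement. By name, 3249 of the 3322 members (97.8%) were found there, against 96.5% of all peaks and 95.9% of single peaks. Of the 855 dense runs, 808 had each of their peaks in v5.0. Only 640 (74.9%) had them on a common scaffold, and 552 (64.6%) also kept each neighbour within 5000 bp. The count was 109 of 183 (59.6%) for the runs left out for their score and 1212 of 1710 (70.9%) for pairs under the limit.

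Runs that did not come over whole were 303 in number. In 47 of them a peak was not found in v5.0, in 168 the peaks were on more than 1 scaffold, and in 88 they shared a scaffold but lay farther apart. Larger runs have more distances that can fail, and 68.8% of runs with 3 peaks, 59.6% with 4 or 5, 57.1% with 6 to 9 and 3 of the 6 with 10 or more were kept. Peaks on at least 2 scaffolds of v5.0 were found for 182 runs (21.3%). At least 3 peaks within 5000 bp of a neighbour were retained by 650 runs (76.0%), including each of the 6 largest. Whether the v3.1 scaffolds, the v5.0 scaffolds or the lift-over account for the separated runs was not tested.

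The steps between neighbours show where runs were broken. Of 2365 neighbours in dense runs that each had a lone place in v5.0, 292 (12.3%) were on different scaffolds there, against 402 of 2440 (16.5%) for other neighbours within 5000 bp. Among the 2073 that shared a scaffold, the distance was within 10% of that in v3.1 for 1343 (64.8%), longer by at least 10% for 441 and shorter by over 10% for 289. It exceeded 5000 bp for 138 of them (6.66%), against 8.24% of the other neighbours, and in 68 cases it exceeded 100000 bp.

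**Figure D5:**
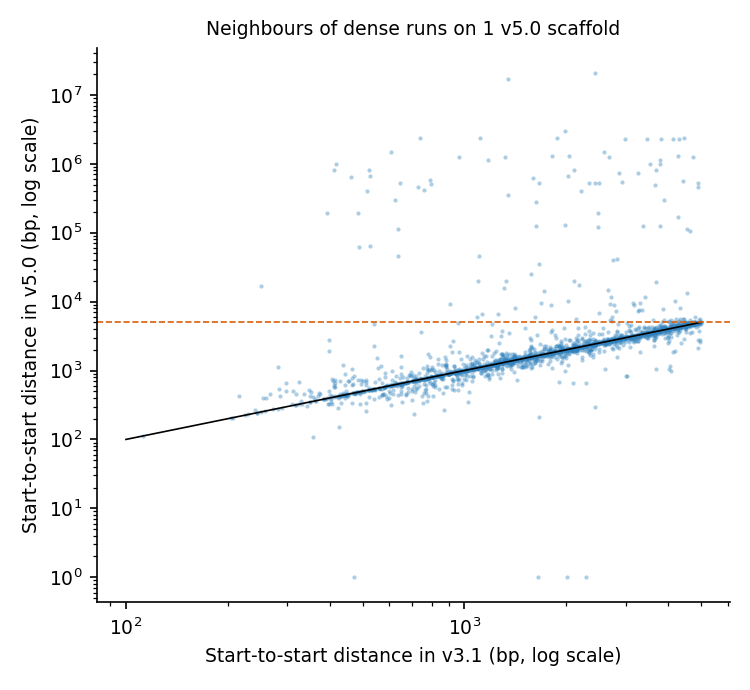
Start-to-start distance of neighbours in dense runs in v5.0 (vertical axis, bp, log scale) against v3.1 (horizontal axis, bp, log scale), for 2073 neighbours with a lone place on a common v5.0 scaffold; the black line marks equal distances, the dashed line 5000 bp, and 4 neighbours joined in a common v5.0 interval are drawn at 1 bp. Most points follow the line, and 138 lie above the dashed line, the highest at 20825575 bp.

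Several of the runs described above changed in v5.0. The 13 peaks of Scaffold3107 were parted between NW_022145539.1 (7 peaks, 1334328 to 1348095) and NW_022145610.1 (6 peaks, 15499011 to 15512872). The peaks sent to either scaffold were interleaved along the v3.1 run. A run of 9 peaks on Scaffold2765, singled out after its values were seen, was divided between the same v5.0 scaffolds, with 3 peaks at 1309725 to 1322559 on NW_022145539.1 and 6 peaks at 15518013 to 15534651 on NW_022145610.1. Its scores were all 2 or 3.

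The short run of Scaffold1148 came apart entirely, since its 4 peaks were placed on 4 scaffolds. That of Scaffold78 likewise reached 4 scaffolds, and no more than 2 of its 5 peaks shared a scaffold. The run of Scaffold376, with the highest summed score, stayed on NW_022145598.1, but neighbours 4437 and 2927 bp apart in v3.1 were 555892 and 548913 bp apart there. On Scaffold946, 6 of the 9 peaks were found, all on NW_022145615.1. The run of Scaffold166 had 11 of its 12 peaks on NW_022145613.1, with a largest step of 5143 bp, and 1 on NW_022145611.1. That of Scaffold128 stayed on NW_022145612.1, but neighbours 1260 bp apart in v3.1 were 6524 bp apart there. The second run of Scaffold213 kept 9 of its 10 peaks on NW_022145552.1, and the other lay on NW_022145604.1.

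Other runs were carried over almost unchanged. The 10 peaks of Scaffold326 lay on NW_022145615.1 from 30948812 to 30962312, a span of 13501 bp against 12966 bp in v3.1. Those of Scaffold759 lay on NW_022145598.1 from 7257980 to 7276528, with 18549 against 18572 bp. The first run of Scaffold213 kept its 10 peaks within 18061 bp on NW_022145599.1. The runs of Scaffold468 and Scaffold87 also stayed whole, spanning 12655 and 16774 bp. These runs are thus dense in either assembly.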

How the data were processed

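CAGE libraries of whole embryos at 9 stages were mapped by the authors to the v3.1 assembly with BWA and HISAT2 after quality control with FastQC, and eRNA peaks were called from clusters of transcription start sites supported by 2 or more tags. Tool versions are not given in the sources used here. The authors deposited 2 peak lists, the v3.1 calls and their lift-over to v5.0 (17401 intervals), each with a whole-number score per peak over all libraries. The score is used as deposited. Its lowest value, 2, equals the least number of tags asked for in the calling, but whether the score counts tags is not stated. Depth per library and per peak is not in the lists, so that no interval over samples is given.

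Positions are counted from 1. Runs were joined on start-to-start distances of 5000 bp or less, and the percentile was taken over the v3.1 list. In v5.0, peaks were matched by name, parts of joint names included, and a run was kept when all its peaks lay on 1 scaffold with each step at 5000 bp or less. Runs named singly are the 10 with the most peaks (ties in favour of the shorter span), the 3 shortest with at least 4 peaks, the 3 with the highest summed score and those next to the score limit. The members and these lists were chosen with earlier results of these data known. The joining step was tested on simulated lists with planted runs. No test between groups was made, because the libraries are pooled. Genes and sequences of the runs were not analysed here. Python 3.11.15, numpy 2.4.6, pandas 2.3.3, scipy 1.17.1 and matplotlib 3.10.9 were used.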

Additional observations from a re-analysis of the deposited data

How the results depend on the processing

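The number of peaks in dense runs, 3322, became 1807 with a join distance of 2500 bp, 4986 with 10000 bp, 1852 with at least 4 peaks per run, 6742 with at least 2 and 1059 with the peaks of the lowest score removed first. The number of runs, 855, became 508 with 2500 bp, 365 with at least 4 peaks, 2565 with at least 2 and 294 without the lowest score. The median score of 3 became 4 with the limit at the 99th percentile, 4 with no limit and 7 without the lowest score. The share at the lowest score, 41.0%, became 37.8% with 2500 bp, 42.7% with 10000 bp, 43.8% with at least 2 peaks, 45.3% below the 90th percentile, 37.1% below the 99th percentile and with no limit, and 0% without the lowest score, by construction. The median width of 324 bp became 331 bp with at least 4 peaks, 317 bp with at least 2, 310 bp below the 90th percentile, 337 bp below the 99th, 338 bp with no limit and 371 bp without the lowest score. The median span of 5772 bp became 3257.5 bp with 2500 bp and 9791 bp with 10000 bp. It became 7698 bp with at least 4 peaks, 3105 bp with at least 2 and 5454 bp without the lowest score. The median distance of 1780 bp became 1182 bp with 2500 bp and 2600 bp with 10000 bp. It became 1678 bp with at least 4 peaks, 1859 bp with at least 2 and 1858 bp in the v5.0 list. The largest run, of 13 peaks, held 27 with 10000 bp. Apart from the changes that follow from each construction, the cause was not tested. Of the values under all alternatives, 63 stayed within 1.5 times (counts) or within the 95% binomial interval (medians and shares), and 36 moved. That interval treats peaks, distances or runs as independent, though they share libraries and the settings share peaks. It served only to label values as moved and gives no spread between samples. Under the limits at the 90th and 99th percentile and with no limit, members stayed wider than single peaks under the same limit (310 against 288 bp, 337 against 296 bp and 338 against 297 bp) and had a lower share at the lowest score (45.3% against 52.4%, 37.1% against 48.4% and 37.1% against 47.8%). The rule applied to the v5.0 list, where the 95th percentile of the score is 43, gave 2897 intervals in 754 runs. Of the 3322 members in v3.1, 2505 were members there too. Runs found again in v5.0, 552, were 526 by names found a single time in each list, 640 by scaffold alone and 650 with at least 3 peaks kept close, a setting chosen after seeing the data. No paired analysis was possible because the lists pool the libraries, and for the same reason no library could be left out.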

Other observations

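In the v5.0 list, 184 of the 17401 intervals carry the names of more than 1 v3.1 peak, and 44 of these hold a peak of a dense run. Peaks of a common dense run were joined in 9 of them, and peaks of different dense runs in 6. Dense runs from different v3.1 scaffolds came to lie side by side in v5.0, with peaks within 5000 bp of each other, in 11 combinations that involve 20 runs. The run of Scaffold1148 is part of such a combination, together with a run of 4 peaks on Scaffold2571, from 10990 to 14758. Lifted intervals can also be far wider than called ones, up to 368952 bp, against 1915 bp for the widest peak in v3.1. A further 15 members have more than 1 place in v5.0.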
